A study of Mus musculus with 10 samples.

Results

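The genes described here are those of the protein-folding machinery whose symbols begin with Hsp or Dnaj, that name a subunit of the cytosolic chaperonin (Tcp1 and Cct2 to Cct8) or that begin with Bag and a digit. They were chosen by symbol, with earlier results of these data known, and made up 54 of the 6147 genes of a table of TPM. TPM is the share of all transcripts that a gene holds after division by its length. RNA came from neocortex, frozen before lysis, of mice of the outbred strain CD1 wild type at the embryonic days E12.5, E14, E15.5 and E17 and on the day of birth, P0. Each of the 5 stages had 2 libraries; the labels name no allele, treatment or cell sort. The series calls them biological duplicates; no label states litter, sex or pooling of embryos, so p-values measure the spread between these libraries. The lysate was cleared by centrifugation before extraction, so RNA that went into the pellet was not measured.

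Chaperones bind unfolded proteins and let them fold or keep them soluble. HSP70 proteins bind short exposed stretches and release them in cycles of ATP hydrolysis; J-domain proteins (the Dnaj genes) start the cycle and bring clients, while HSP110 and BAG proteins exchange the nucleotide. HSP90 acts later on kinases and receptors, and the ring-shaped chaperonins enclose a client, the cytosolic CCT ring being known for actin and tubulin, which growing neurons make in quantity. The endoplasmic reticulum (ER) and the mitochondrion hold their own HSP70, HSP90 or chaperonin.

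By symbol the members fell into 3 HSP90 genes, 8 of the HSP70 family, 3 of HSP110, 2 of the mitochondrial chaperonin, 8 of CCT, 3 DNAJA, 7 DNAJB, 12 DNAJC, 5 BAG and 3 others. The last are Hspbp1, a nucleotide exchange factor of HSP70, Hspbap1, and Hspg2, which matches by symbol only: it encodes perlecan, a proteoglycan of basement membranes, and is no chaperone. Cct6b, a testis-type CCT subunit, lay between 0.04 and 0.26 TPM in the 10 libraries and was the only member left out by the minimum mean of 1 TPM, so 53 were tested. The small HSP genes and Cct6a were not analysed here.

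The members summed to 8140 and 8324 TPM in the E12.5 libraries, 7720 and 7528 (E14), 7242 and 7264 (E15.5), 6286 and 6806 (E17), 6459 and 7076 (P0). Every library from E15.5 on lay below every library of E12.5 and E14. The member with the highest mean was Hsp90ab1 (1084 TPM over the 10 libraries), followed by Dnajc5 (653) and Hspa8 (518), and the lowest tested was Hspa2 (1.08).

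Values in TPM carry no depth, which is unknown. On log2(TPM + 1), the SD of the difference between the 2 libraries of a stage over all tested genes was 0.285 for E17, while the remaining stages had 0.088 to 0.176. Of 9 neocortex genes taken as a check of the tissue, 6 were in the table, and they summed to between 1002 and 1609 TPM in the 10 libraries. Markers of other cells changed along the series. Meningeal collagens and proteoglycans (4 of 4 listed) summed to between 79.0 and 125.3 TPM at E12.5 and E14 and to between 1.96 and 5.72 TPM later. Vascular genes (3 of 6 listed) summed to between 44.7 and 80.6 TPM at E12.5 and E14, 7.34 and 7.76 (E15.5), 22.1 and 15.7 (E17), 10.9 and 9.10 (P0). The 3 listed erythroid genes fell from between 1880 and 4494 TPM to between 2.04 and 9.84, with Hbb-bh1 at 0 in both P0 libraries, and Ttr, the only listed choroid plexus gene, from between 293 and 1491 TPM to between 2.93 and 5.14. Proliferation genes (6 listed) went from 907 and 943 TPM at E12.5 to 128 and 129 at P0, and 6 neuronal maturation genes from 603 and 603 to 5287 and 5326. In whole tissue, fewer cells of a type and less RNA per cell cannot be told apart.

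Between E12.5 and P0, most members became less abundant and a few became more abundant. limma, fitted to the 6048 genes that averaged 1 TPM or more and adjusted over them by the Benjamini-Hochberg method, called 45 of 53 members at an adjusted p under 0.05 (84.9%, against 78.2% of all genes tested). Of these 36 were lower at P0 (67.9%, against 51% of all genes) and 9 higher (17%, against 27.1%). The median member changed by -0.39 on the log2 scale and the median gene by -0.27. Changes of at least 1 on the log2 scale were called lower for 10 members (18.9%, against 20% of all genes) and higher for 4 (7.55%, against 11.1%). In the moderated F test over the 5 stages 47 members were called (88.7%, against 82.9%). Because TPM are shares, the balance of directions depended on the scaling. Median-of-ratios scaling, which brings the median gene to -0.01, gave 22 lower and 12 higher members (all genes: 37.7% and 37.9%). Quantile normalization (median gene -0.05) gave 27 and 10 (all genes: 40% and 36.6%). All changes below are on the log2(TPM + 1) scale. Without both E17 libraries, a setting added after the data were seen, 37 were lower and 10 higher. There 84.9% of all genes were called in either direction.

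**Figure D1:**
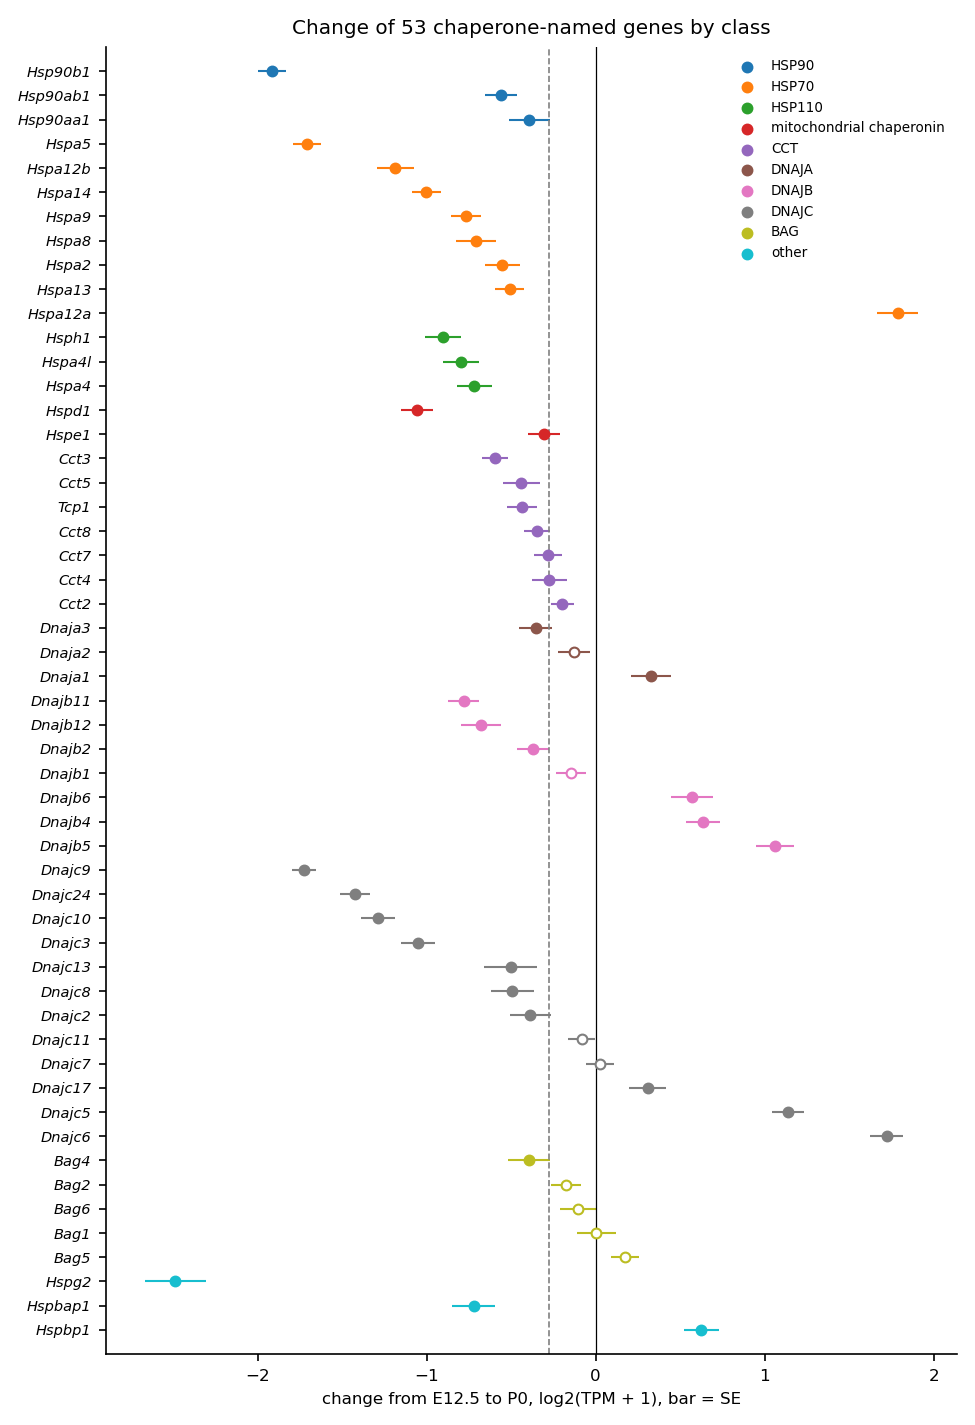
Change of each of the 53 tested members from E12.5 to P0 on the log2(TPM + 1) scale, with its standard error as a bar. Colours are classes, filled points have a limma adjusted p under 0.05, and the dashed line is the median of all 6048 genes, at -0.27; the points run from Hspg2 at -2.49 to Hspa12a at 1.79.

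Chaperones of the ER lumen, where secreted and membrane proteins fold, all fell. This grouping follows the known location of 6 members (Hspa5, Hsp90b1, Dnajb11, Dnajc3, Dnajc10 and Hspa13) and was drawn after their values had been seen. All 6 were called lower at P0 (51% of all genes were), with a median of -1.17 against -0.27 for all genes. All 6 were also called lower under median-of-ratios scaling (median -0.90) and quantile normalization (-0.88). Of all genes 37.7% and 40% were called lower under these scalings. Summed, they held 584 ± 11.7 TPM (SD, n = 2 here and below) in the E12.5 libraries, 460.4 ± 26.4 (E14), 257.5 ± 8.47 (E15.5), 324 ± 8.91 (E17), 217 ± 8.87 (P0). The 48 other members summed to 7649 ± 142 TPM at E12.5 and 6551 ± 445 at P0.

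Hspa5 encodes BiP, the HSP70 of the ER, which holds new chains and restrains the sensors of the unfolded protein response. Its values were 205 and 203 TPM (E12.5), 153 and 167 (E14), 74.9 and 70.7 (E15.5), 85.2 and 95.8 (E17), 64.2 and 59.2 (P0). Both libraries of each stage from E15.5 on lay below all those of E12.5 and E14, and the E17 pair lay above the pairs on either side. Over the whole span it fell by 1.71 (SE 0.09, limma adjusted p 5.25e-09), a ratio of 3.30 between the mean TPM. Hsp90b1 encodes GRP94, the HSP90 of the ER. It had 179 and 174 TPM (E12.5), 123 and 137 (E14), 65.3 and 63.1 (E15.5), 81.9 and 85.0 (E17), 48.2 and 44.1 (P0). The order of the stages was the same as for Hspa5, with no overlap between neighbouring stages, and the fall to P0 was -1.91 (SE 0.08, limma adjusted p 1.5e-09), exceeded among the tested members only by Hspg2.

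The ER J-domain genes had the same outline at lower levels. Dnajc3 encodes p58IPK, a co-chaperone of BiP, and is the only member that the authors put in the category of translation-associated genes. Its libraries gave 36.7 and 32.7 TPM (E12.5), 29.6 and 31.6 (E14), 18.5 and 17.1 (E15.5), 23.1 and 21.7 (E17), 15.9 and 16.5 (P0). The P0 pair lay below every other pair, and the fall was -1.05 (SE 0.10, limma adjusted p 1.42e-06). Dnajc10 encodes ERdj5, a disulfide reductase, and was at 57.2 and 55.4 TPM (E12.5), 42.8 and 47.0 (E14), 27.4 and 24.4 (E15.5), 34.8 and 30.1 (E17), 22.6 and 22.3 (P0). It was lowest at P0 and fell by 1.29 (SE 0.10, limma adjusted p 2.96e-07). Dnajb11 encodes ERdj3, which binds clients ahead of BiP, with 67.5 and 65.6 TPM (E12.5), 54.7 and 54.1 (E14), 38.0 and 37.5 (E15.5), 43.6 and 47.5 (E17), 41.4 and 35.5 (P0). The P0 libraries, unlike those of the other ER genes named so far, overlapped with those of E15.5, and the fall from E12.5 was -0.78 (SE 0.09, limma adjusted p 1.01e-05). Hspa13, a microsomal HSP70-like protein, gave 46.8 and 45.4 TPM (E12.5), 38.4 and 42.4 (E14), 39.4 and 38.8 (E15.5), 48.9 and 49.7 (E17), 31.0 and 33.3 (P0). Both E17 libraries lay above those of E12.5 and both P0 libraries below all others, with a change of -0.51 (SE 0.09, limma adjusted p 0.000198).

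By step, 5 of these 6 genes were called lower from E14 to E15.5, when 18 members in all (34% of those tested) and 33.3% of all genes were. The changes were -1.13 (SE 0.09, limma adjusted p 1.17e-06) for Hspa5, -1.004 (SE 0.08, limma adjusted p 2.12e-06) for Hsp90b1, -0.77 (SE 0.10, limma adjusted p 7.49e-05) for Dnajc10, -0.75 (SE 0.10, limma adjusted p 7.9e-05) for Dnajc3 and -0.52 (SE 0.09, limma adjusted p 0.000716) for Dnajb11. Each of these 5 calls held in all 22 alternatives tried. From E15.5 to E17 the direction turned: 5 of the 6 were called higher, among 6 members (11.3%) and 14.4% of all genes, with changes between 0.31 and 0.37, and Dnajb11 was at 0.26 (limma adjusted p 0.0577). No alternative turned these changes, which ranged from 0.33 to 0.41 for Hsp90b1, 0.26 to 0.36 for Hspa13, 0.23 to 0.39 for Hspa5, 0.22 to 0.37 for Dnajc3 and 0.21 to 0.41 for Dnajc10, but their calls depended on the libraries used. The calls of Hspa5, Hsp90b1 and Hspa13 were lost when E15.5 replicate 1 or E15.5 replicate 2 was left out, that of Dnajc3 in 10 of 21 alternatives and that of Dnajc10 in 14, and none of the 5 was called when these 4 libraries were fitted alone (highest limma adjusted p over the alternatives 0.311, for Dnajc10). All 5 calls were also lost when libraries were weighted by their spread (array weights). The main fit uses 1 spread per gene for all stages, while the SD of replicate differences was 0.285 at E17 and 0.088 at E15.5. From E17 to P0, 5 of the 6 were called lower (10 members, 18.9%, against 28.8% of all genes). Their changes ran from Hsp90b1 at -0.84 (SE 0.08, limma adjusted p 2.89e-05) to Dnajc3 at -0.44 (SE 0.10, limma adjusted p 0.00512). In this step the calls of Hspa5, Hsp90b1 and Hspa13 held in all 21 alternatives. That of Dnajc10 was lost in 2 and that of Dnajc3 in 3. Some members outside this group also fell, rose and fell over these steps. Among them were Hspg2 (-1.575, 0.33 and -0.69), Dnajb12 (-0.45, 0.18 and -0.20) and Dnajc13 (-0.26, 0.30 and -0.40), whose rises from E15.5 to E17 were not called. The summed vascular and meningeal markers given above were likewise low at E15.5 and higher at E17 than at E15.5 and P0. From E14 to E15.5 the vascular sums had fallen from 44.7 and 47.7 TPM to 7.34 and 7.76. The meningeal sums had fallen from 82.15 and 78.95 TPM to 2.70 and 2.34. The part of those cells in the course of the ER genes was not tested.

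**Figure D2:**
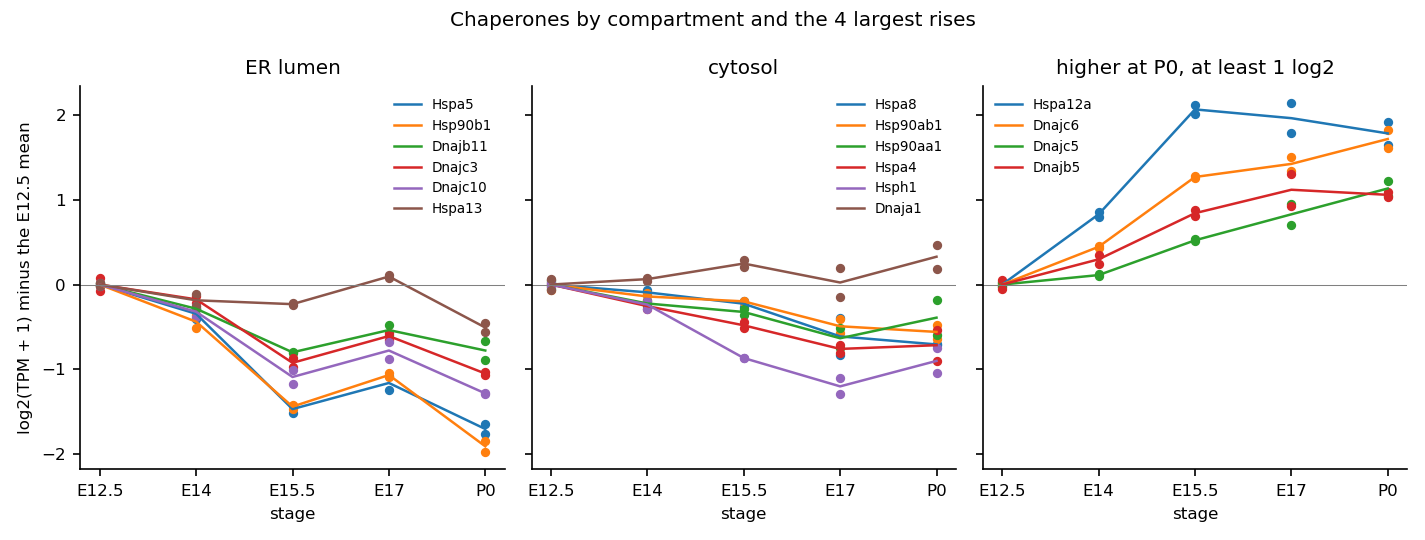
Points are libraries and lines join stage means, as log2(TPM + 1) minus the E12.5 mean of the gene, for 6 ER lumen members, 6 cytosolic members and the 4 members that rose by at least 1 on the log2 scale. Among the ER genes Hspa5 and Hsp90b1 drop by more than 1 between E12.5 and E15.5 and turn up at E17, a turn absent from Hspa8 and Hsp90ab1.

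Other enzymes of ER folding, listed by function, were mostly lower at P0 too. The list was drawn up with earlier results of these data known, so it is no independent check of the ER members. Of 19 such genes in the table (lectins, disulfide isomerases, BiP co-factors and prolyl isomerases), 16 were called lower from E12.5 to P0 (84.2%, against 51% of all genes) and 0 higher (against 27.1%), with a median of -1.19 against -0.27. The lowest value was that of Sdf2l1, a partner of ER J-domain proteins, at -2.44 (SE 0.12, limma adjusted p 3.95e-09), and the highest that of Fkbp2 at 0.02 (SE 0.11, adjusted p 0.848). From E14 to E15.5 16 of the 19 were lower (84.2%, against 33.3% of all genes) and 0 higher. From E15.5 to E17 8 were higher (42.1%, against 14.4%) and 0 lower. From E17 to P0 14 were lower (73.7%, against 28.8%) and 0 higher. Meningeal, vascular and choroid plexus markers also fell from E14 to E15.5, the vascular sums from 44.7 and 47.7 TPM to 7.34 and 7.76. The part of such cells in the course of these 19 genes was not tested.

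The promoters of the ER members are shown because several hold the ER stress response element, the sequence through which the factors ATF6 and NF-Y are known to act. It was searched as CCAAT, 9 bases of any kind and CCACG, on both strands, in windows of 300 bases, from 250 before to 50 after each start in RefSeq (GRCm38.p6), and occurred in 39 of 32851 windows (0.119%). Of the 44 members with a window it was present in 3, Hspa5, Hsp90b1 and Dnajc3, all ER genes; the windows of Dnajb11 and Dnajc10 did not hold these letters, and none was used for Hspa13. Capitals mark the fixed bases of each match, and the sequences run 5′ to 3′ along the gene. The Hspa5 window is at chr2:34771840-34772139 on the plus strand, that of Hsp90b1 at chr10:86705395-86705694 on the minus strand and that of Dnajc3 at chr14:118937682-118937981 on the plus strand.
Hspa5: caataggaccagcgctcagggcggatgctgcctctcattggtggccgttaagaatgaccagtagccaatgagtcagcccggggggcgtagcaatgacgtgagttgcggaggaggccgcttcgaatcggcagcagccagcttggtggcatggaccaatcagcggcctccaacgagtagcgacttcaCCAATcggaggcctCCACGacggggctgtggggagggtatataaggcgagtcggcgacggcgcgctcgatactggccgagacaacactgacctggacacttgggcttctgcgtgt
Hsp90b1: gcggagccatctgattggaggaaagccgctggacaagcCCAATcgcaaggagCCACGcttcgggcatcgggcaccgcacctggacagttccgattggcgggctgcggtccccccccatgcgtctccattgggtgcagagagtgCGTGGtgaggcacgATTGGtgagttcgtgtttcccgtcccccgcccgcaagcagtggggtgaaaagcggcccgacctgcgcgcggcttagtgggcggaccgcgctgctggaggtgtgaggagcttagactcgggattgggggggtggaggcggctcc
Dnajc3: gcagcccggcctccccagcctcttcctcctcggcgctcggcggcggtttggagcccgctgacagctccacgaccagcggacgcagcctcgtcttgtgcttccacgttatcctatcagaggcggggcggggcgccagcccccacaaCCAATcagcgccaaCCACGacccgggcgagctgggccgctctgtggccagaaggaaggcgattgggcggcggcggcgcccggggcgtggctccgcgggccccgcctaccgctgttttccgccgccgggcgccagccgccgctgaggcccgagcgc
Hsp90b1 holds the element 2 times, the second in reverse. A match is a description of the letters and not evidence of binding in this tissue.

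Cytosolic HSP90 and HSP70 genes were also lower at P0. Hsp90ab1 encodes the constitutive HSP90 beta. Its libraries gave 1247 and 1354 TPM (E12.5), 1208 and 1149 (E14), 1137 and 1127 (E15.5), 873 and 976 (E17), 830.1 and 935 (P0). All libraries of E17 and P0 lay below all of the first 3 stages, and the change from E12.5 to P0 was -0.56 (SE 0.10, limma adjusted p 0.000201). Hsp90aa1, the stress-inducible alpha form, was at 332 and 320.3 TPM (E12.5), 284 and 274 (E14), 253 and 267 (E15.5), 193 and 227 (E17), 215 and 286 (P0). The P0 libraries were wide apart, 1 above and 1 below both E14 libraries, and both lay below E12.5. The change was -0.39 (SE 0.12, limma adjusted p 0.0109), and it was no longer called with median-of-ratios scaling (adjusted p 0.446), without E12.5 replicate 1 (0.0598) and without P0 replicate 1 (0.133).

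Within a library the beta form was between 3.27 and 4.51 times as abundant as the alpha form. The log2 ratio of alpha to beta was -1.99 at E12.5 and -1.82 at P0, a difference of 0.17. Permuting which libraries form a pair, in every possible way, and comparing F over the 5 stages gave an exact p of 0.128 (adjusted 0.128 over 2 ratios). The smallest possible p is 0.00106. This test asks whether the ratio differs among any of the 5 stages, not between E12.5 and P0 alone. At this precision no change of the ratio was detected. Relative to the ER genes, Hsp90ab1 was 7.38 ± 0.593 times as abundant as Hsp90b1 at E12.5 and 19.2 ± 2.82 times at P0 (SD, n = 2 each), and Hspa8 3.13 ± 0.185 times as abundant as Hspa5 at E12.5 and 6.33 ± 0.414 times at P0. Between these stages neither ratio climbed steadily: they were 17.6 and 7.48 at E15.5 and 11.1 and 4.62 at E17. These last ratios were chosen after the values were seen and were not tested.

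Hspa8 encodes HSC70, the constitutive cytosolic HSP70 that also strips clathrin from vesicles. It had 614 and 661 TPM (E12.5), 611 and 584 (E14), 558 and 531 (E15.5), 359 and 483 (E17), 388 and 392 (P0). All E17 and P0 libraries lay below those of the first 3 stages, and the fall to P0 was -0.71 (SE 0.12, limma adjusted p 0.000163). Hspa9 encodes mortalin, the HSP70 of the mitochondrial matrix, which fell by 0.77 (SE 0.09, limma adjusted p 6.8e-06), and Hspa14, a ribosome-associated HSP70, fell by 1.002 (SE 0.09, limma adjusted p 6.26e-07). The libraries of Hspa14 gave 39.3 and 39.8 TPM (E12.5), 34.9 and 34.1 (E14), 24.7 and 24.8 (E15.5), 20.3 and 19.4 (E17), 18.9 and 19.5 (P0), with no overlap between the first 3 stages. It overlaps on the same strand with another protein-coding gene model, so reads could have been shared. Hspa2, known from spermatocytes, lay between 0.66 and 1.66 TPM and fell by 0.55 (SE 0.10, limma adjusted p 0.000478); under quantile normalization it was at -0.17 without a call (adjusted p 0.154).

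The 2 Hspa12 genes, distant relatives of HSP70, went opposite ways. Hspa12a, which is known to be expressed in brain, gave 21.2 and 21.7 TPM (E12.5), 39.7 and 38.2 (E14), 96.8 and 90.2 (E15.5), 98.2 and 76.9 (E17), 69.5 and 84.3 (P0). Both E14 libraries lay above E12.5 and both E15.5 libraries above E14, after which the pairs overlapped. From E12.5 to P0 it rose by 1.79 (SE 0.12, limma adjusted p 8.09e-08), the largest rise of any member, and the largest step was that from E14 to E15.5, 1.24 (SE 0.12, limma adjusted p 7.96e-06). Hspa12b, which is known from endothelium, was at 3.34 and 3.37 TPM (E12.5), 2.91 and 2.61 (E14), 1.04 and 1.06 (E15.5), 1.03 and 1.22 (E17), 0.84 and 0.99 (P0). Its change was -1.18 (SE 0.11, limma adjusted p 1.31e-06), and that from E14 to E15.5 was -0.88 (SE 0.11, limma adjusted p 5.54e-05), when the vascular markers fell to their lowest sums; the part of those cells in it was not tested.

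All 3 HSP110 genes, the nucleotide exchange factors of cytosolic HSP70, fell. Hsph1, the heat-inducible one, was at 91.5 and 93.4 TPM (E12.5), 80.9 and 75.8 (E14), 50.2 and 50.2 (E15.5), 37.0 and 42.3 (E17), 44.1 and 54.4 (P0). The E17 pair was the lowest and did not overlap with P0. Its fall from E12.5 to P0 was -0.90 (SE 0.11, limma adjusted p 9.12e-06), that of Hspa4l -0.80 (SE 0.11, limma adjusted p 2.72e-05), and that of Hspa4 -0.72 (SE 0.11, limma adjusted p 6.61e-05). Hspa4, the most abundant of the class, gave 145 and 146 TPM (E12.5), 124.6 and 118 (E14), 101 and 106 (E15.5), 82.6 and 88.1 (E17), 77.3 and 100.03 (P0). All 3 were called lower at P0 (51% of all genes were). They were also called lower under median-of-ratios scaling and quantile normalization (37.7% and 40% of all genes were).

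The mitochondrial chaperonin consists of a barrel of HSP60 (Hspd1) and a lid of HSP10 (Hspe1), and the 2 genes lie head to head on chromosome 1. In GENCODE M21 (GRCm38) Hspd1 spans 55077835 to 55088243 on the minus strand and Hspe1 55088132 to 55091307 on the plus strand, so their starts are 111 bases apart and the models overlap. Hspd1 was at 242 and 232 TPM (E12.5), 186 and 189 (E14), 136 and 139 (E15.5), 103 and 119 (E17), 104 and 123 (P0). The E14 pair lay below that of E12.5 and the E15.5 pair below that of E14. Hspe1 was at 306 and 290.4 TPM (E12.5), 303 and 300.3 (E14), 252 and 272 (E15.5), 213 and 255 (E17), 232 and 250.2 (P0). Its E12.5 and E14 libraries overlapped, and its later ones were lower. Between the first and the last stage Hspd1 fell by 1.06 (SE 0.09, limma adjusted p 8.18e-07) and Hspe1 fell by 0.31 (SE 0.09, limma adjusted p 0.00989); Hspe1 was no longer called with median-of-ratios scaling (-0.03), without E12.5 replicate 1 (adjusted p 0.0705) and without P0 replicate 1 (adjusted p 0.072).

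The lid transcript became more abundant relative to that of the barrel. Within a library Hspe1 had 1.26 and 1.25 times the TPM of Hspd1 (E12.5), 1.62 and 1.59 times (E14), 1.85 and 1.97 (E15.5), 2.07 and 2.15 (E17), 2.22 and 2.03 (P0). The stages E12.5, E14 and E15.5 were separate and the last 2 overlapped. On the log2 scale the ratio of Hspd1 to Hspe1 went from -0.33 to -1.08, a difference of -0.75. The same exact permutation of pairs gave p = 0.00423 (adjusted 0.00847 over 2 ratios). A ratio within a library does not depend on the scaling total. Both genes have processed pseudogenes, and how shared reads were counted is not stated.

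**Figure D3:**
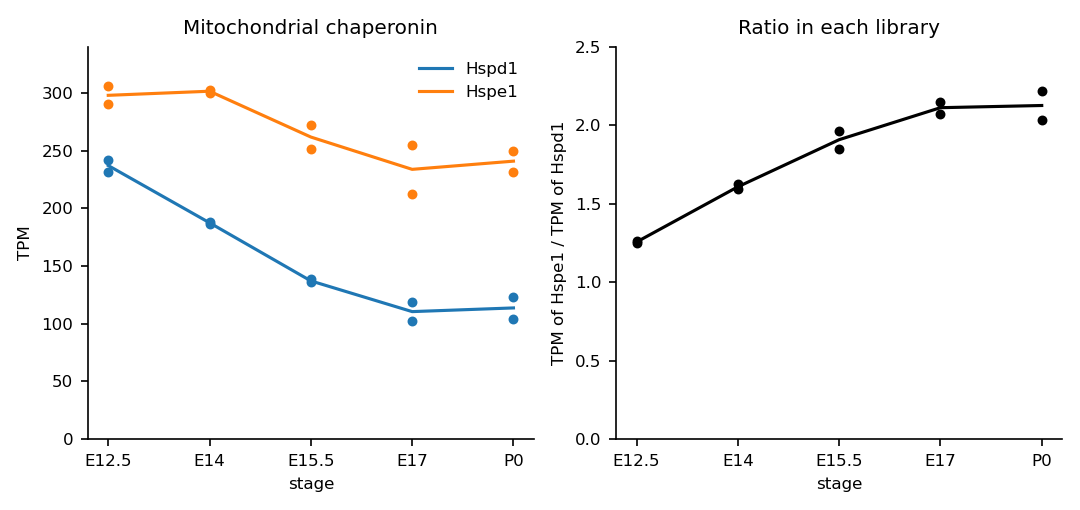
Left, TPM of Hspd1 and Hspe1 in each library (points) with stage means (lines); right, the ratio of Hspe1 to Hspd1 in each library. The ratio climbs from 1.26 and 1.25 at E12.5 to 2.22 and 2.03 at P0.

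The shared promoter is shown because both genes read out from it and it holds heat shock elements, the repeats bound by heat shock factors. These were searched as GAA, TTC and GAA with 2 bases of any kind between neighbours, on both strands, and were in 198 of 32851 windows (0.603%) and in 29 of the 4841 listed genes with a window (0.599%). Among the 44 members with a window they were present in 4: Hspd1, Hspe1, Hsph1 and Dnajb6. The Hspe1 window is at chr1:55087898-55088197 on the plus strand, the Hsph1 window at chr5:149636266-149636565 on the minus strand and the Dnajb6 window at chr5:29735648-29735947 on the plus strand, with the fixed bases of the matches in capitals.
Hspe1: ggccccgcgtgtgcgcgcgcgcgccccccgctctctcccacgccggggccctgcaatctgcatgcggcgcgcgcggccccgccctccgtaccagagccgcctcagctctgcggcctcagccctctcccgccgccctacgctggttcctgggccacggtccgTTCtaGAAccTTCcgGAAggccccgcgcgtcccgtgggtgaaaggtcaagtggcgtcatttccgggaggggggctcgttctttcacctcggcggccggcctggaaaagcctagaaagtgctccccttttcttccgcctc
Hsph1: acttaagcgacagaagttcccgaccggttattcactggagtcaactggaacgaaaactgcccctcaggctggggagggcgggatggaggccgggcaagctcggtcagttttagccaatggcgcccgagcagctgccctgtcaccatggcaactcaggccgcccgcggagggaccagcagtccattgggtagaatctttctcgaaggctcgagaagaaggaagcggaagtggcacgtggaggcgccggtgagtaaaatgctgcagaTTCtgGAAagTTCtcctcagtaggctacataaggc
Dnajb6: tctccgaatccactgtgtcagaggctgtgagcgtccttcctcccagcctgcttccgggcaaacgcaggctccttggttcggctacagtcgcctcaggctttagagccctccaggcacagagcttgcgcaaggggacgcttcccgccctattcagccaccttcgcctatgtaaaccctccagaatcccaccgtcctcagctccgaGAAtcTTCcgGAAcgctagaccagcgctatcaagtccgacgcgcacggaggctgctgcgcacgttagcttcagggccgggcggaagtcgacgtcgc
In the Hspe1 window the forward and reverse patterns overlap in a single run. The 4 genes did not move as a set: Hspd1, Hspe1 and Hsph1 fell between E12.5 and P0, and Dnajb6 rose by 0.57 (SE 0.12, limma adjusted p 0.00125).

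The CCT ring is built from 8 different subunits in equal number, of which 7 could be tested. All 7 were called lower at P0 (51% of all genes were), with a median of -0.35 against -0.27 for all genes. Their summed TPM were 1926 and 1996 (E12.5), 1855 and 1806 (E14), 1762 and 1771 (E15.5), 1359 and 1588 (E17), 1487 and 1555 (P0). Tcp1 gave 289.9 and 297 TPM (E12.5), 261 and 266 (E14), 233 and 236 (E15.5), 183 and 224 (E17), 216 and 218 (P0). Cct2 gave 289 and 293 TPM (E12.5), 283 and 278 (E14), 296 and 298 (E15.5), 232 and 253 (E17), 254 and 253 (P0). Both E17 and P0 pairs lay below the E15.5 pair for each of these genes.

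The changes from E12.5 to P0 were -0.60 (SE 0.08, limma adjusted p 2.26e-05) for Cct3, -0.44 (SE 0.11, limma adjusted p 0.00304) for Cct5, -0.44 (SE 0.09, limma adjusted p 0.000823) for Tcp1, -0.35 (SE 0.08, limma adjusted p 0.00165) for Cct8, -0.28 (SE 0.08, limma adjusted p 0.00848) for Cct7, -0.27 (SE 0.10, limma adjusted p 0.0282) for Cct4 and -0.20 (SE 0.07, limma adjusted p 0.0222) for Cct2. The direction was not independent of the scaling. Under median-of-ratios scaling Cct2 was at 0.08 and Cct4 at 0.00, and Cct3 alone stayed called. There 37.7% of all genes were called lower. Quantile normalization kept all 7 lower, 5 of them called (40% of all genes were called lower). Beyond that scaling, Cct4 lost its call under quantile normalization and when any one of the 4 libraries of E12.5 and P0 was left out (limma adjusted p 0.0503 to 0.147), and Cct2 under quantile normalization and without E12.5 replicate 1, E12.5 replicate 2 or P0 replicate 2 (0.0511 to 0.127). Cct7 also lost its call without E12.5 replicate 2 (0.0983).

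The subunits took different courses. Cct3 had 271 and 297 TPM (E12.5), 258 and 241 (E14), 212 and 207 (E15.5), 166 and 180.0 (E17), 186 and 189 (P0). It was lower in every stage up to E17 than in the one before. Cct4 had 226 and 220.2 TPM (E12.5), 221 and 214 (E14), 245 and 234 (E15.5), 177 and 227 (E17), 178 and 191 (P0). It was higher at E15.5 than at E14 in both libraries, and its E17 libraries were far apart. Cct5 had 298 and 316 TPM (E12.5), 299 and 291 (E14), 275 and 279.7 (E15.5), 193 and 253 (E17), 215 and 237 (P0). Cct7 had 278 and 308 TPM (E12.5), 284 and 269 (E14), 278 and 286 (E15.5), 217 and 242 (E17), 235 and 247 (P0). Cct8 had 275 and 265 TPM (E12.5), 249.6 and 247 (E14), 223 and 229 (E15.5), 189 and 209 (E17), 203 and 222 (P0). For Cct5 and Cct8 both E17 and P0 pairs lay below the first 3 stages, and so they did for Cct7. In each library the most abundant subunit had between 1.32 and 1.44 times the TPM of the least abundant. The highest was Cct5 in all 4 libraries of E12.5 and E14 and Cct2 in all 6 later ones; the lowest was Cct4 in the first 4 and Cct3 in 5 of the 6 later ones, with Cct4 in P0 replicate 1.

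**Figure D4:**
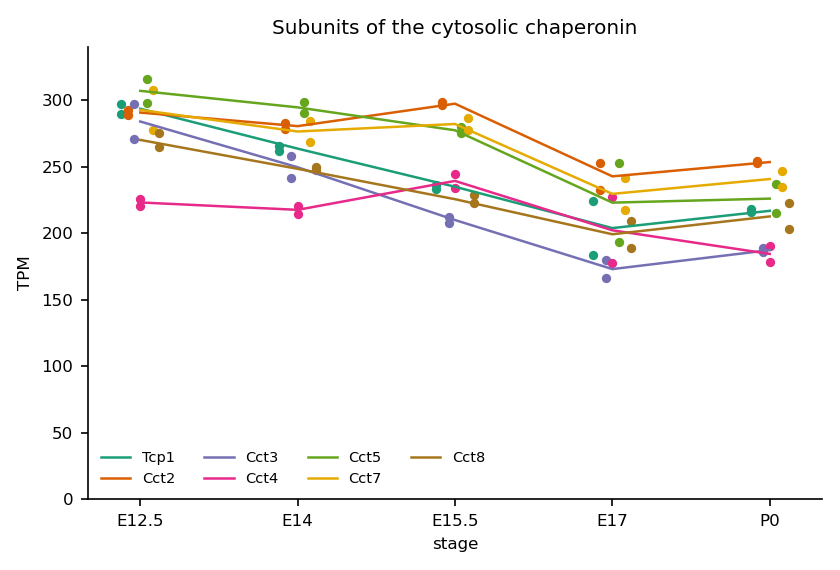
TPM of 7 subunits of the cytosolic chaperonin by stage; points are libraries, offset sideways for legibility, and lines join stage means. All lie between 166 and 316 TPM, Cct3 and Cct4 change places as the lowest, and the E17 libraries of several subunits are wide apart.

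Prefoldin delivers actin and tubulin to the CCT ring, and of its 5 listed subunits 1 was called higher at P0 (Pfdn5, 0.42, SE 0.13, limma adjusted p 0.00994) and 0 lower (20% and 0%, against 27.1% and 51% of all genes); the lowest value was that of Vbp1 (-0.14, adjusted p 0.339). Of 10 regulators of CCT and tubulin cofactors, which assemble the tubulin dimer after release, 4 were higher and 3 lower (40% and 30%, against 27.1% and 51%), from Tbce (0.61, SE 0.11, adjusted p 0.000263) to Pdcl, a regulator of CCT (-0.78, SE 0.08, adjusted p 1.78e-06).

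Of the 9 members called higher, 7 were J-domain genes, all outside the ER. These classes also held many of the 53 members tested: 3 DNAJA, 7 DNAJB and 12 DNAJC genes, the ER ones included. By class, 1 of 3 DNAJA, 3 of 7 DNAJB and 3 of 12 DNAJC genes were called higher, against 27.1% of all genes. Called lower were 1, 3 and 7, the ER genes among them, against 51% of all genes. Dnajc5 encodes cysteine string protein alpha, which with HSC70 protects proteins of the synaptic vesicle. Its libraries gave 426 and 444 TPM (E12.5), 473 and 467 (E14), 631 and 620.4 (E15.5), 844 and 710.0 (E17), 902 and 1016 (P0). It was the most abundant J-domain gene in every library, each pair lay above the one before without overlap, and it rose by 1.14 (SE 0.10, limma adjusted p 5.17e-07). Dnajc6 encodes the neuronal auxilin, which recruits HSC70 to clathrin coats, with 17.6 and 17.8 TPM (E12.5), 24.2 and 24.7 (E14), 43.7 and 44.5 (E15.5), 52.1 and 46.5 (E17), 56.2 and 65.3 (P0). It rose by 1.72 (SE 0.10, limma adjusted p 1.71e-08), and E15.5 lay above E14 in both libraries, with a change of 0.83 (SE 0.10, limma adjusted p 3.39e-05). Dnajb5, a cytosolic relative of Dnajb1, gave 48.8 and 52.6 TPM (E12.5), 60.2 and 64.9 (E14), 89.6 and 93.8 (E15.5), 127 and 97.4 (E17), 109 and 105 (P0). Its E17 libraries were far apart and its rise to P0 was 1.06 (SE 0.11, limma adjusted p 3.69e-06). With Hspa12a these are the 4 members that rose by at least 1 on the log2 scale, and all 4 calls held in every one of 22 alternatives. The summed neuronal maturation markers rose along the same stages; their part in these rises was not tested.

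Smaller rises were called for Dnajb4 (0.64), Dnajb6 (0.57), Dnaja1 (0.33) and Dnajc17 (0.31). Dnaja1, a main cytosolic partner of HSC70 and the most abundant of its class, gave 246 and 225 TPM (E12.5), 249 and 243 (E14), 272 and 289 (E15.5), 213 and 269 (E17), 268 and 327 (P0). The 2 P0 libraries were above E12.5, but E17 replicate 1 fell below both E12.5 libraries, and its change was 0.33 (SE 0.12, limma adjusted p 0.0237). The call was lost without E12.5 replicate 2 (adjusted p 0.144) and without P0 replicate 2 (0.227), and that of Dnajc17 without either of these or E12.5 replicate 1 (0.0761 to 0.138). Dnajb1, the heat-inducible cytosolic J-domain gene, was not called (-0.14, limma adjusted p 0.159), nor was Dnaja2 (-0.13, adjusted p 0.228); both were above 0 under median-of-ratios scaling (0.13 and 0.15).

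Dnajc9, which binds histones and is known from dividing cells, had the strongest fall of all J-domain genes. It was at 249 and 252 TPM (E12.5), 199 and 199 (E14), 119 and 119.8 (E15.5), 97.5 and 100.3 (E17), 71.9 and 78.5 (P0). The pairs of E12.5, E14, E15.5 and E17 lay each below the one before without overlap, and P0 below all. The fall was -1.73 (SE 0.07, limma adjusted p 1.09e-09), a ratio of 3.34 between the mean TPM. The proliferation markers fell over the same stages (6 of 6 called); their part in it was not tested. Dnajc24 takes part in making diphthamide on elongation factor 2 and gave 47.7 and 45.6 TPM (E12.5), 42.1 and 41.3 (E14), 27.3 and 25.9 (E15.5), 21.2 and 22.4 (E17), 16.3 and 17.2 (P0). It fell by 1.42 (SE 0.09, limma adjusted p 3.82e-08). Both calls held in every one of 22 alternatives.

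Other J-domain genes fell by less than 1. Dnajb12 was at -0.68, Dnajc13, an endosomal protein, at -0.50, Dnajc8, a splicing protein, at -0.49, Dnajc2, a partner of Hspa14 at the ribosome, at -0.39, Dnajb2 at -0.37 and the mitochondrial Dnaja3 at -0.36. Of these 6, Dnajb12 alone kept its call under all 22 alternatives; Dnajc13 lost it without E12.5 replicate 2 (limma adjusted p 0.06) or P0 replicate 1 (0.106), Dnajc2 without E12.5 replicate 1 (0.062) or P0 replicate 1 (0.109) and Dnajc8 without P0 replicate 1 (0.0623), and all but Dnajb12 lost it under another scaling. Dnaja3 gave 35.8 and 36.1 TPM (E12.5), 32.5 and 33.8 (E14), 29.3 and 31.4 (E15.5), 28.6 and 24.4 (E17), 27.7 and 28.1 (P0). Dnajc7 (0.03, limma adjusted p 0.784) and the mitochondrial Dnajc11 (-0.08, adjusted p 0.359) were not called, but with median-of-ratios scaling both were called higher (0.30, adjusted p 0.011, and 0.19, adjusted p 0.0368).

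The BAG genes, exchange factors that link HSP70 to other pathways, were the class with the fewest calls from E12.5 to P0. Bag1, the most abundant, gave 199 and 205 TPM (E12.5), 217 and 206 (E14), 209 and 199.9 (E15.5), 173 and 234 (E17), 207 and 198 (P0). The E17 pair held both the lowest and the highest value, and the change was 0.00 (SE 0.12, limma adjusted p 0.982). Bag4 was the one member called, at -0.39 (SE 0.12, limma adjusted p 0.0126). It had 49.0 and 50.04 TPM (E12.5), 48.7 and 43.1 (E14), 45.1 and 46.2 (E15.5), 31.8 and 35.6 (E17), 32.6 and 43.1 (P0). Its call was lost under both other scalings, without E12.5 replicate 2 (adjusted p 0.0625) and without P0 replicate 1 (0.138). Bag5 gave 36.0 and 37.4 TPM (E12.5), 33.5 and 34.3 (E14), 35.5 and 37.0 (E15.5), 35.5 and 33.9 (E17), 41.2 and 41.9 (P0). Both P0 libraries were the highest, without a call from E12.5 to P0 (0.17, limma adjusted p 0.0728). Bag5 was called higher with median-of-ratios scaling (0.44, adjusted p 0.000175), quantile normalization (0.42, adjusted p 0.000325), globins left out of the total (0.20, adjusted p 0.0485) and either E17 library or both left out (highest adjusted p 0.0304), and from E17 to P0 at 0.25 (SE 0.08, limma adjusted p 0.0295). Bag2 was at -0.18 (adjusted p 0.094; called without E17 replicate 1 or E17 replicate 2, highest adjusted p 0.0351; above 0 under both other scalings) and Bag6, which handles tail-anchored proteins, at -0.10 (adjusted p 0.387).

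Of the remaining members Hspbp1 gave 39.5 and 42.9 TPM (E12.5), 42.5 and 35.3 (E14), 47.9 and 46.5 (E15.5), 50.3 and 44.7 (E17), 65.6 and 62.6 (P0). It was highest in the 2 P0 libraries and rose by 0.63 (SE 0.10, limma adjusted p 0.000171). Hspbap1 fell by 0.72 (SE 0.13, limma adjusted p 0.000285); under quantile normalization it was at -0.19 without a call (adjusted p 0.0605). Hspg2, the perlecan gene, was at 6.42 and 7.54 TPM (E12.5), 4.16 and 4.72 (E14), 0.84 and 0.81 (E15.5), 1.87 and 0.82 (E17), 0.48 and 0.36 (P0). It had the largest fall of all members at -2.49 (SE 0.18, limma adjusted p 1.5e-07) and was low throughout; at E17 it was higher in replicate 1 than in replicate 2, as were the summed vascular markers (22.1 and 15.7 TPM). The part of vascular and meningeal cells in its fall was not tested.

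Co-chaperones of HSP90 and HSP70 were called lower at a share close to that of all genes. Of 22 listed, 11 were lower at P0 (50%, against 51% of all genes) and 3 higher (13.6%, against 27.1%), with a median of -0.33 against -0.27. They ranged from Hyou1, which works in the ER, at -1.68 (SE 0.14, limma adjusted p 4.42e-07) to Unc45a, a myosin co-chaperone, at 0.46 (SE 0.13, limma adjusted p 0.00669). Without Hyou1, 10 of 21 were lower (47.6%) and the median was -0.25, and the lowest was Stip1, which links HSP70 to HSP90, at -1.32 (SE 0.09, limma adjusted p 5.36e-08). Of 8 genes of mitochondrial folding and proteolysis 5 were lower (62.5%, against 51%) and 0 higher (against 27.1%), with a median of -0.46, from Trap1, the mitochondrial HSP90, at -0.79 (SE 0.10, adjusted p 1.29e-05) to Htra2 at 0.27 (adjusted p 0.0552). The only listed gene of heat shock control was Hsbp1, which binds the trimer domain of HSF1. It rose from 643 and 648 TPM at E12.5 to 1566 and 1495 at P0, by 1.24 (SE 0.09, adjusted p 1.05e-07).

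**Figure D5:**
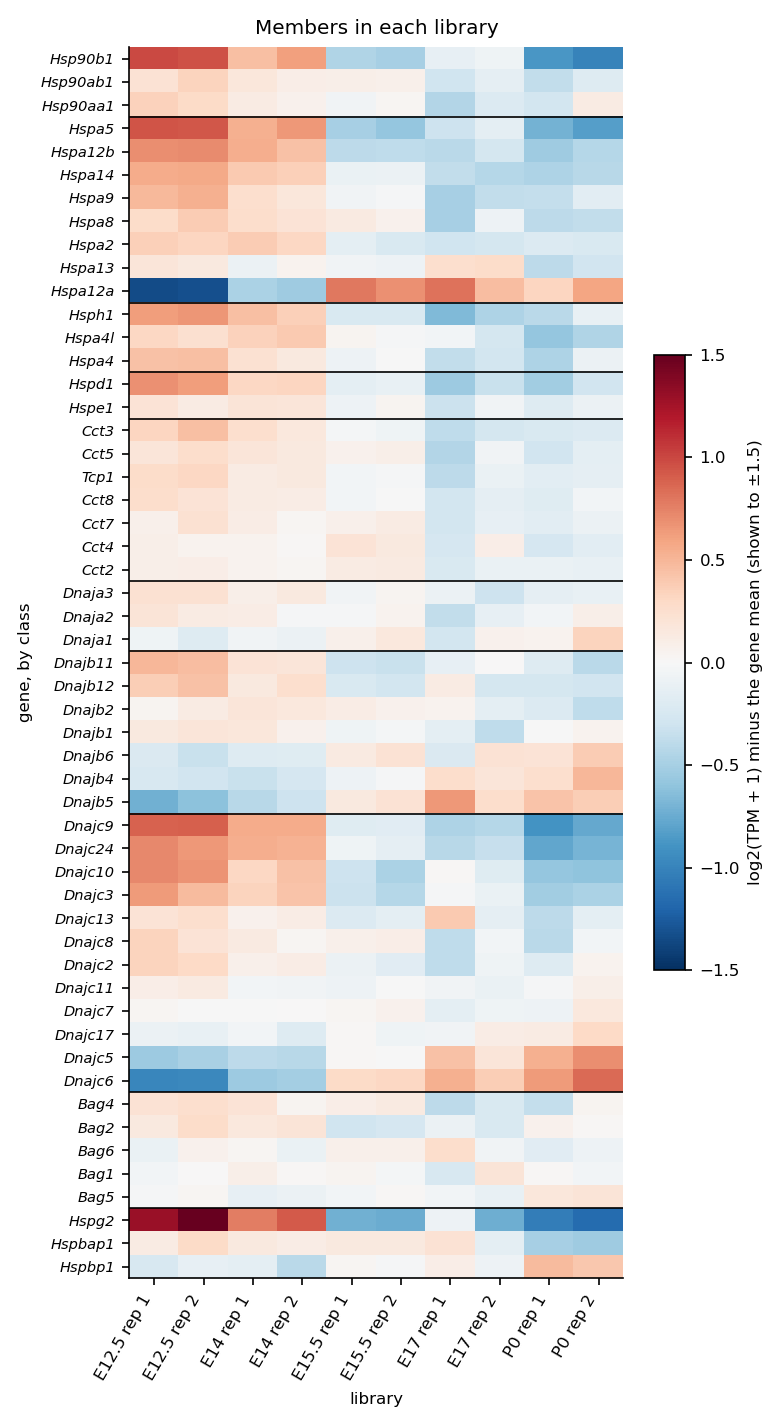
Heat map of the 53 tested members (rows, by class, lines between classes) in the 10 libraries (columns); colour is log2(TPM + 1) minus the mean of the gene, shown to ±1.5. Hsp90b1, Hspa5, Dnajc9 and Hspg2 are high at E12.5 and low at P0, Hspa12a, Dnajc5 and Dnajc6 the reverse, and E17 replicate 1 is bluer (lower) than replicate 2 for Hspa8 and the CCT genes.

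Over the neighbouring stages, the number of members called was 6 from E12.5 to E14 (11.3%, against 8.73% of all genes), 24 from E14 to E15.5 (45.3%, against 51.7%), 19 from E15.5 to E17 (35.8%, against 25%) and 17 from E17 to P0 (32.1%, against 41.7%). By direction these were 4 lower and 2 higher (4.78% and 3.95% of all genes), 18 and 6 (33.3% and 18.4%), 13 and 6 (10.6% and 14.4%), and 10 and 7 (28.8% and 12.9%). For the 36 members lower at P0 the largest of the 4 steps lay between E14 and E15.5 in 15, between E15.5 and E17 in 15, between E17 and P0 in 5 and between E12.5 and E14 in 1. All 7 CCT genes had theirs between E15.5 and E17, and 4 of them were called lower there. This rested on E17 replicate 1: without it 2 of the 7 (Cct2 and Cct7) had their largest step there, and of the 36 members 7, with 20 between E14 and E15.5. The largest step of 5 of the 6 ER genes lay between E14 and E15.5 whichever single library was left out. Largest steps were not counted for all genes, so whether the ER genes, CCT genes or the 36 members differ was not tested. The step between E14 and E15.5 also held the highest share of all genes called (51.7%). The count of members called from E14 to E15.5 stayed within 1.5 times in every alternative, but the others rested on single libraries. For the first step it was 1 without E12.5 replicate 1, E12.5 replicate 2 or E14 replicate 1, 2 without E14 replicate 2, and 15 when either E17 library was left out. For E15.5 against E17 it was 0 without E15.5 replicate 1 or E15.5 replicate 2 (20 and 16 at an unadjusted limma p under 0.05), 8 without either E12.5 library, 9 without either E14 library and 36 without E17 replicate 2. For the last step it was 29 without E17 replicate 2 and 10 without P0 replicate 2. With each of these libraries left out, the share of all genes called moved the same way as the count of members. The balance also moved with the scaling. Under median-of-ratios scaling lower and higher members were 2 and 3, 16 and 9, 11 and 8, and 10 and 15 in the 4 steps. Of all genes these were 5.03% and 7.14%, 25.8% and 26%, 12.3% and 16.6%, and 22.7% and 21.3%. Under quantile normalization the members were 3 and 3, 16 and 9, 14 and 5, and 8 and 11. All genes had 7.18% and 7.72%, 26.9% and 25.9%, 16.1% and 15.1%, and 19.6% and 20.8%.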

How the data were processed

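Polyadenylated RNA of 10 neocortex libraries was sequenced by the authors, with stranded libraries per the labels' protocols. Each library has a column of deposited TPM, per the file headers. The submitters' processing notes name STAR, Subread and GRCm38.p5 without roles; no source used here gives the annotation, the gene lengths or how the 6147 listed genes were chosen. In each library these genes held 68.9% to 71.7% of the TPM total. TPM are shares, so a rise of abundant genes lowers others, and depth is unknown.

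Stages came from the labels and columns were matched by name, with 0 columns left over. Values were analysed as log2(TPM + 1) for 6048 genes, those averaging 1 TPM or more, which leaves out 99. limma 3.58.1 in R 4.3.3 fitted 1 mean per stage over all 10 libraries (5 residual degrees of freedom, variance trend). P values were adjusted over all genes tested. The log2(TPM + 1) scale understates changes of low genes. Tables and figures used Python 3.11.15 and pandas 2.3.3. On simulated data of these 6048 genes for E12.5 against P0, 194 of 200 genes changed by 1 were recovered, with 12 false calls. Of 200 changed by 0.5, 122 were recovered, with 10 false calls. The simulation drew independent noise with 1 spread per gene for all stages and changed only these 200 genes. The SD of replicate differences in the data ran from 0.088 to 0.285 by stage, so recovery and false calls there may differ.

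Promoter windows are from RefSeq (GRCm38.p6; 44 members matched). The rule for values by library named the most abundant member of each class, the extremes of each class of 3 or more, every member called with a change of at least 1, and the HSP90 and chaperonin genes. Of the partner lists the highest and lowest genes are named. Members and lists were chosen with earlier results of these data known. Positions are from GENCODE M21 (all 54 members matched); 14 members overlap another gene model on the same strand and 21 on the opposite strand, and no source used here says whether counting used strand. Members with near-identical copies or pseudogenes (Hspa8, Hsp90aa1, Hsp90ab1, Hspd1, Hspe1) are uncertain to that extent.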

Additional observations from a re-analysis of the deposited data

How the results depend on the processing

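Precision rests on 2 libraries per stage sharing one estimate of spread (median SE of a member's change 0.099). From E12.5 to P0, 27 of the 45 called members kept call and direction in every alternative, all 14 with a change of at least 1 among them. Of 1163 recomputed changes 1095 kept direction and side of the threshold, 45 lost the call, 10 gained it and 13 turned. The counts over 5 stages, from E12.5 to P0 and from E14 to E15.5 stayed within 1.5 times of 47, 45 and 24. Replicate numbers did not pair the libraries (correlations of replicate differences between stages from -0.37 to 0.11); with the number as a replicate block the counts were 45 over 5 stages, 45 from E12.5 to P0, 6, 24, 16 and 18 in the 4 steps, and the ratio tests gave p = 0.292 and 0.025 (exact permutation).

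From E12.5 to E14, array weights gave 22 members, the 4 libraries alone 24, leaving out single libraries between 1 and 15, and leaving out both E17 libraries (added after seeing the data, as were largest steps without each library and co-chaperones without Hyou1) 15, against 6. From E15.5 to E17 these were 1, 0 (limma; 20 at an unadjusted p under 0.05) and between 0 and 36, against 19, and from E17 to P0 4, 4 and between 10 and 29, against 17. The share of all genes called moved the same way. From E12.5 to E14 it was 39.9% with array weights and 41% with the 4 libraries alone, against 8.73%. From E15.5 to E17 it was 1.98% with the 4 libraries alone, against 25%, and array weights lowered it too. From E17 to P0 it was 18.9% with array weights and 18.6% with the 4 libraries alone, against 41.7%. The cause of these shifts was not tested. Changes that turned from E12.5 to P0 under median-of-ratios scaling were Bag2 (0.095), Bag6 (0.169), Cct2 (0.0785), Cct4 (0.0011), Dnaja2 (0.146), Dnajb1 (0.129) and Dnajc11 (0.19), and under quantile normalization Bag2 (0.064), Bag6 (0.016) and Dnajc11 (0.12). Leaving out single libraries, Bag1 ranged from -0.0291 (without P0 replicate 1) to 0.0356 (without P0 replicate 2) and Dnajc7 from -0.0871 (without P0 replicate 2) to 0.1393 (without P0 replicate 1).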
